A study of Mus musculus with 6 samples.

Results

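The comparison set the proximal against the distal part of the control forelimb bud of the mouse at E10.5 (embryonic day after conception), each measured on 1 Affymetrix array, so that 2 of the 6 arrays of the series carried it. The pair was taken from the array titles, and genes were described across the whole array. The array represents 18193 genes, and 11397 of them were above background on at least 1 control array and are called measured. All embryos were of the CD1 strain. The labels of the control disagree, since a wild type description stands beside the genotype Ring1A-/-, so both control arrays may lack the Polycomb protein RING1A. Neither was treated with retinoic acid (RA). The other arrays are a proximal and distal pair from Prx1-Cre; Ring1A-/-; Ring1Bfl/fl buds (dKO), in which the Cre is driven by the Prx1 promoter of limb mesenchyme, and a pair from wild type embryos whose dams received all-trans RA by oral gavage, 100 mg/kg at E10.25. How many embryos went into an array, and where the buds were cut, is not stated in the labels.

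At this stage the forelimb bud is a paddle of mesenchyme covered by ectoderm. Its distal rim, the apical ectodermal ridge, secretes fibroblast growth factors (FGFs) that keep the mesenchyme under it growing, and a posterior group of mesenchymal cells secretes Sonic hedgehog (SHH). RA from the trunk, and the MEIS homeodomain proteins that respond to it, mark the part nearest the body, which will form the upper arm, whereas 5′ Hox genes such as Hoxd13 mark the part that will form the hand. Muscle precursors, blood vessels and nerves enter the bud from the proximal side.

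Signals are the authors' MAS5 intensities on a linear scale. Each array was floored at its median signal, 64.0 for the proximal and 59.5 for the distal control array, and a difference is the log2 of the floored proximal signal minus that of the distal one, so that a positive value is higher proximally. Where 1 array was at its floor the difference is only a bound and is given as "at least" or as "a bound". Counts and medians take a bound at its value, so they may understate a difference. With 1 array per part there is no replicate check and no p-value, and "higher" and "lower" compare those arrays alone. In bulk tissue, fewer cells of a type and less RNA per cell cannot be told apart.

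The labels were checked on genes that define the tissue. Tbx5, the T-box factor of the forelimb, had a signal of 1449.6 in the proximal and 1282 in the distal array, and Prrx1, a homeobox factor of limb mesenchyme, 6876 and 6631. The hindlimb factor Pitx1 was below the floor on both arrays and Tbx4 was at 60.4 and 74.9, near it. Ring1, which encodes RING1A, had a signal of 624 and 968, and Rnf2, which encodes RING1B, 2042 and 2070.0. The labels do not say whether the probes of either gene fall inside its deletion, so neither signal checks the genotype.

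Of the measured genes, 155 were 2-fold or more higher proximally, which is 1.36% of those measured, and 159 were 2-fold or more higher distally, which is 1.40%, together 314 genes or 2.76%. These shares are the background for each 2-fold count of a list or family below. After each array was divided by its median the counts were 125 and 196. The differences were centred on 0, with a median below 0.001 in size, and 90% of them lay between -0.50 and 0.51. Larger differences were more often proximal, with 35 genes at 4-fold or more higher proximally and 8 distally. Of the genes at 2-fold, 35 of the proximal and 28 of the distal ones rest on a bound.

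Dim genes were called far more often than bright ones. With the measured genes split into 4 equal groups by mean signal, 6.74% of the dimmest were 2-fold in either direction, then 3.26%, 0.807% and, in the brightest, 0.211%. The middle 90% of differences ran from -0.80 to 0.83 in the dimmest and from -0.20 to 0.17 in the brightest group, so a 2-fold difference of a dim gene lies much closer to the spread of its neighbours in signal. The array also holds other probe sets for some of these genes, which read the same RNA and are not replicates. For the proximal genes 73 of 74 such probe sets differed in the same direction, 45 of them by 2-fold or more, and for the distal genes 46 of 49 and 27, bounds included, with 0 at 2-fold in the opposite direction for either.

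**Figure D1:**
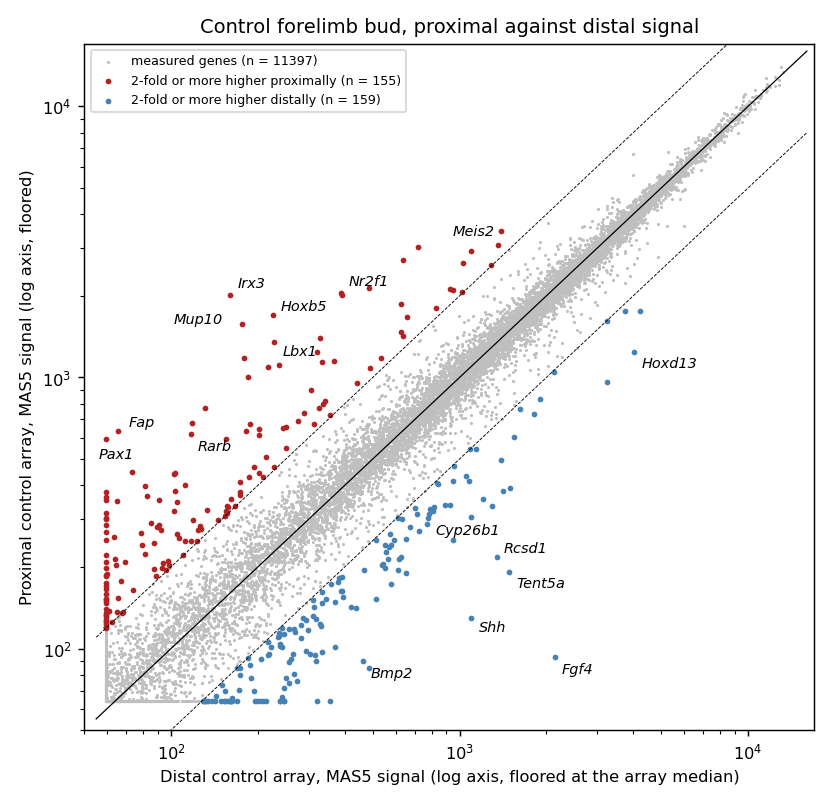
Signals of the 11397 measured genes on the distal (x) and proximal (y) control arrays, both on log axes and floored at the array median; the solid line marks equal signals and the dashed lines 2-fold. The 155 genes higher proximally lie above the upper dashed line, with Irx3, Pax1 and Fap farthest out, and the 159 higher distally below the lower one, with Fgf4 and Shh farthest out.

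Homeobox genes led the proximal side. Irx3, an Iroquois homeobox gene of the proximal and anterior limb, had a signal of 2018 in the proximal and 160.4 in the distal array. Its difference of 3.65 was the largest in the proximal direction among genes with a signal of at least 200 on 1 array, although genes given as bounds may exceed it. Irx5, its neighbour on the chromosome, had 251 and 17.2 and differed by at least 2.08. The other measured Iroquois genes, Irx2 and Irx4, differed by at least 0.18 and 0.43, and Irx1 and Irx6 were below the floor on both arrays. Thus 2 of 4 measured Iroquois genes were 2-fold higher proximally and 0 distally, against 1.36% and 1.40% of all measured genes. Their median was 1.25 against 0.00 over all measured genes.

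Meis2, the homeobox gene named in the title of the series, had a signal of 2941 in the proximal and 1094 in the distal array and differed by 1.43, and its other 3 probe sets above the floor differed by 1.38, 1.29 and 1.23. Meis1, its paralogue, had 614 and 202 and differed by 1.61, with 1.38 from a second probe set. Meis3 was dim, at 108 and 42.5, and differed by at least 0.86. All 3 Meis genes were therefore higher proximally, 2 of them by 2-fold. Their partners of the PBX family, which bind DNA together with MEIS and HOX proteins, differed less: Pbx3 had 3063 and 2183 (0.49), Pbx2 3486 and 3264 (0.09) and Pbx4 was near the floor. Pknox2, a relative of the Meis genes, went the other way at 115 and 210.0 (-0.87), and over the 10 measured genes of this family the median was 0.12.

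The Meis2 promoter is shown because the series is about the control of Meis2. The window runs from 250 bases before to 50 after the transcription start at chr2:116064570-116064869, minus strand, of GRCm38.p6 (RefSeq). Capitals mark the 1 match found to CAATAAA, a motif of the HOX13 proteins, which lies on the opposite strand.
Meis2: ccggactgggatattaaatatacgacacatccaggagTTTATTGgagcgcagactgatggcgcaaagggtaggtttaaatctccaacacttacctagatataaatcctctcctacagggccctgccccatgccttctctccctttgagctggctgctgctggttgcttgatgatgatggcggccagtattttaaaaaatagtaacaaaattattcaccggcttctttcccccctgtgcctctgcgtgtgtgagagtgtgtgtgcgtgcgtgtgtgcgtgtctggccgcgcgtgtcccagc
A match is only a match of letters. CAATAAA was searched on both strands and occurs in 4.60% of the 32851 promoters in the RefSeq table. It occurs in the promoters of 5 of the 108 proximally higher genes that have one there, of 5 of the 117 distally higher genes, and of 2.98% of all measured genes.

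Hox genes were ordered along the bud by their number. Of the 28 measured Hox genes 9 were 2-fold higher proximally and 3 distally, against 1.36% and 1.40% of all measured genes. All 14 measured genes of paralogue groups 1 to 6 had a higher signal proximally, 9 of them by 2-fold, with a median of 1.15 and a range of 0.39 to 2.91. Among the 10 genes of groups 7 to 10, 1 was higher proximally by any amount, 2 were 2-fold higher distally, and the median was -0.11. All 4 measured genes of groups 11 to 13 were higher distally, 1 by 2-fold, with a median of -0.82. Genes of 1 cluster are neighbours, so these counts are not independent of each other.

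The HoxB cluster held the largest differences. Hoxb5 had a signal of 1699 in the proximal and 226 in the distal array (2.91), Hoxb3 1179 and 179 (2.72), Hoxb6 300.1 and 37.1 (at least 2.33) and Hoxb4 352 and 90.8 (1.96). A second Hoxb3 probe set differed by 0.74, so the size for that gene depends on the probe set. Hoxb5os, an antisense transcript of the same stretch, had 1005 and 185 (2.44), while Hoxb2 (0.41) and Hoxb9 (-0.10) differed by less than 2-fold. Hoxb1 was dim, at 101 and 15, and differed by at least 0.76. The 4 genes from Hoxb3 to Hoxb6 were thus 2-fold higher proximally.

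The HoxC cluster changed direction within its length. Hoxc4 had 2136 and 487 (2.13) and Hoxc5 1240.1 and 319.5 (1.96), both higher proximally, and Hoxc6 was at 109.8 and 44.7 (at least 0.88). Hoxc8 had 414 and 1083 (-1.39) and Hoxc9 176 and 379 (-1.10), both higher distally. In HoxD, Hoxd3 was higher proximally at 273 and 124 (1.14), whereas Hoxd8 (-0.05), Hoxd9 (0.14) and Hoxd10 (-0.26) were nearly even. Hoxd11 had 1032 and 1875 (-0.86) and Hoxd13, a gene of the future hand, 1247 and 4035 (-1.69). Hoxd12, between them, was dim and differed by -0.52 (a bound). HoxA values ran from at least 1.16 for Hoxa2 and 1.01 for Hoxa4 to -0.77 for Hoxa11, which marks the future forearm, at 1500.4 and 2561. Hoxa10 differed by 0.00 on its chosen probe set but by -1.38 on a dimmer one, and Hoxa13 was below the floor on both arrays.

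**Figure D2:**
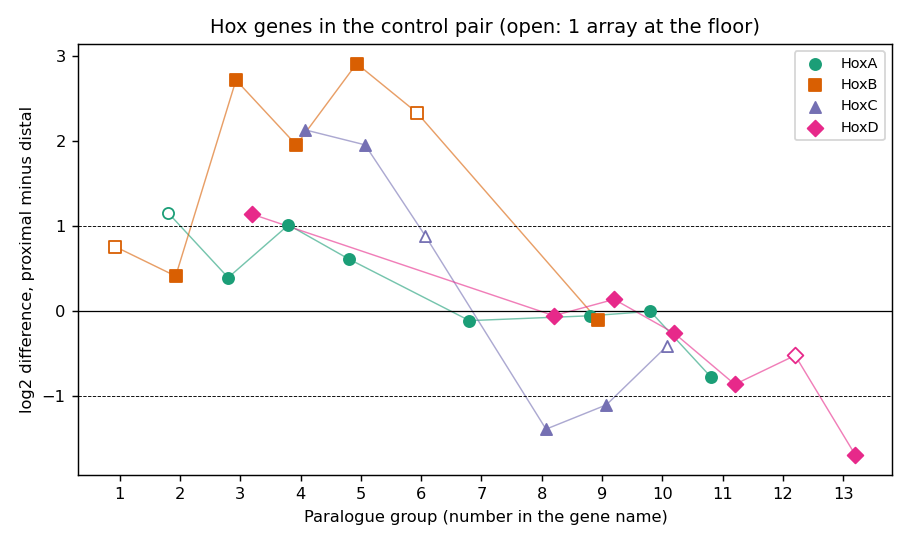
Difference between the control arrays (y, log2 proximal minus distal) for the 28 measured Hox genes by paralogue group (x), with 1 colour and symbol per cluster, open symbols where 1 array was at the floor, and dashed lines at 2-fold. All 14 points of groups 1 to 6 lie above 0 and all 4 points of groups 11 to 13 below it.

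Among genes of RA signalling, nuclear receptors that RA induces were higher proximally and a breakdown enzyme distally. Rarb, an RA receptor gene that RA itself induces, had a signal of 617 in the proximal and 117 in the distal array and differed by 2.40. Nr2f1, an orphan nuclear receptor gene also induced by RA, had 2050.0 and 388 (2.40), and its paralogue Nr2f2 1995 and 1208 (0.72). The other receptors differed little, with Rarg at -0.07, Rxra at 0.21 and Rxrb at 0.11. Cyp26b1, the enzyme that clears RA from the distal bud, had 302 and 780.3 (-1.37) and was the 1 of 9 measured genes for retinoid synthesis, transport and breakdown at 2-fold. The RA-producing dehydrogenases Aldh1a1, Aldh1a2 and Aldh1a3 were below the floor on both arrays, and Rdh10, which makes their substrate, differed by 0.51. The RA-binding proteins Crabp1 and Crabp2 were bright on both arrays and differed by -0.12 and 0.15.

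The Rarb promoter is shown because Rarb is a direct target of RA receptors and was among the 20 largest proximal differences. It lies at chr14:16575427-16575726, minus strand, of GRCm38.p6 (RefSeq), with the same window of 250 bases before and 50 after the start. Capitals mark a direct repeat of the kind that RA receptors bind and a match to the MEIS motif TGACAG.
Rarb: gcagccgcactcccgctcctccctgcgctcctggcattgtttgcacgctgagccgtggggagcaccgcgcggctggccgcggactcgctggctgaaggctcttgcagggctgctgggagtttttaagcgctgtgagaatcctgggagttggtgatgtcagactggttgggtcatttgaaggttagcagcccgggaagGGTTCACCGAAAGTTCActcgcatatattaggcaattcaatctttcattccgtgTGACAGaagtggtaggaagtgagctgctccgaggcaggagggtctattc
The repeat, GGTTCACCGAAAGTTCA, spans bases -53 to -37 from the start. With the 5 bases between its half-sites left free, the repeat was found in 2 of the 32851 promoters; its half-sites are those of Rarb, so its match there was fixed by the search. The general form, with AGGTCA as both half-sites, was in 3 of all promoters, in 0 of 108 for proximally higher genes and in 1 of 117 for distally higher genes, that of Ppbp. TGACAG is common: it was found in 19.2% of all promoters, in 23 of 108 (21.3%) for proximally higher genes and in 23 of 117 (19.7%) for distally higher genes. The GLI motif TGGGTGGTC was in 0 of 108 and 0 of 117, against 0.253% of all promoters, and the ETS motif CAGGAAGT in 2 of 108 and 5 of 117, against 3.33%. These searches, on both strands, describe the windows and not binding.

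Signals of the apical ridge led the distal side. Fgf4, one of the FGFs made by the ridge, had a signal of 92.7 in the proximal and 2141 in the distal array. Its difference of -4.53 was the largest value of any gene in either direction. Its 2 other probe sets were below the floor proximally and differed by -4.17 and -4.13, both bounds. Fgf8, the main ridge FGF, was dim on its probe set, at 40.9 and 238 (-1.90, a bound), as were Fgf9 at 98.5 and 192 (-0.96) and Fgf17 at 11.7 and 96.6 (-0.59, a bound). All 4 ridge FGFs were thus higher distally, 2 of them by 2-fold. The ridge transcription factors followed: Sp8 had 604 and 1549.9 (-1.36), Sp6 227 and 558 (-1.30), Dlx2 433 and 1054 (-1.28) and Dlx5 55.4 and 246 (-1.94, a bound). Cd44, a hyaluronan receptor of the ridge, had 206 and 544 (-1.40). Of 15 measured ridge genes 8 were 2-fold higher distally, 0 proximally and 14 below 0, with a median of -1.09, where 1.40% of all measured genes were 2-fold higher distally. The exception was Msx2, a BMP target also active in mesenchyme, at 618 and 430.4 (0.52).

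The Fgf4 promoter is shown because Fgf4 had the largest difference. It lies at chr7:144861136-144861435, plus strand, of GRCm38.p6 (RefSeq), and capitals mark 1 match to TGACAG, from -150 to -145.
Fgf4: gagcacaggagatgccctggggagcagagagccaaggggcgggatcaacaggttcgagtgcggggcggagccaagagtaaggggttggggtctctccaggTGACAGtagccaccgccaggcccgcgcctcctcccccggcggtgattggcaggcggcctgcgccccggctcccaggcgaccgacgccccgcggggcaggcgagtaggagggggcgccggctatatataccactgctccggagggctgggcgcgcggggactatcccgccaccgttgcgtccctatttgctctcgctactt
No match to the RA receptor repeats, CAATAAA, TGGGTGGTC or CAGGAAGT was found in this window.

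FGF signalling inside the bud was graded by less. Of 11 measured genes that FGF induces, 10 were lower proximally but 1 by 2-fold, and the median was -0.26. That gene was Spry1, a feedback inhibitor, at 242 and 553 (-1.19). Spry4, a related inhibitor, had 710.1 and 1342 (-0.92), Spry2 1064 and 1553 (-0.54), and the ETS factor Etv4 753 and 1021 (-0.44). Dusp6, a phosphatase that switches off the kinase ERK, had 2889 and 3351 (-0.21), and Il17rd, an inhibitor of FGF receptors, 1755 and 2350.0 (-0.42). Among other FGF ligands and receptors 0 of 10 were 2-fold either way, which at a share of 2.76% over all measured genes does not set them apart. Fgf10, the mesenchymal ligand that maintains the ridge, was dim at 110.5 and 103 (0.09), and the receptors Fgfr1 and Fgfr2 differed by -0.14 and 0.24.

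In the SHH pathway the ligand and targets were higher distally and the co-receptors proximally. Shh had a signal of 130.1 in the proximal and 1099 in the distal array (-3.08). Its target Gli1 had 236 and 568 (-1.27), its receptor and target Ptch1 3618 and 5253 (-0.54), and Grem1, a BMP antagonist that links SHH to the ridge, 357 and 1208 (-1.76). Hand2, which acts upstream of Shh, had 2290.5 and 3413 (-0.58). The 3 co-receptors that bind SHH at the membrane were 2-fold higher proximally on their chosen probe sets: Cdon had 1400.2 and 327 (2.10), Boc 2098 and 950.2 (1.14) and Gas1 2609.7 and 1287 (1.02). A second Cdon probe set was dim and differed by at least 0.21. The 2 other Gas1 probe sets differed by 0.65 and 0.87, under 2-fold, and a second Boc probe set by 1.13. Gli2, Gli3, Smo and Sufu, the transducers, differed by 0.17, 0.10, -0.18 and -0.06. The list as a whole had 3 of 14 genes higher proximally and 3 distally and a median of -0.05, which hides this split. Over all measured genes 1.36% were 2-fold higher proximally and 1.40% distally.

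BMP ligands were higher distally and a receptor proximally. Bmp2 had 89.7 and 464 (-2.37) and Bmp4 1757 and 3744 (-1.09), and Bmp7 (-0.47) and Bmp5 (-0.62) had the same sign. Bmpr1b, the type I receptor of cartilage condensations, had 445 and 103 (2.11), whereas Bmpr1a and Bmpr2 differed by 0.06 and -0.11. Id1, Id2 and Id3, which BMPs induce, were higher proximally by 0.57, 0.73 and 0.63, opposite in sign to the ligands but under 2-fold. Msx2 differed by 0.52. Bambi, also on the list, had 877 and 1539 (-0.81), the same sign as the ligands. Smad6 (-0.19), Smad7 (-0.11) and Msx1 (-0.13) were slightly below 0, so the Id genes do not stand for the list. Over 16 measured genes 1 was 2-fold higher proximally and 3 distally, against 1.36% and 1.40% of all measured genes.

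WNT ligands were mostly higher distally and an inhibitor proximally. Wnt7a, the signal of the dorsal ectoderm, had 306 and 1093 (-1.84) and Wnt5a, which directs distal outgrowth, 763 and 1617 (-1.08), with -1.06, -1.11 and -1.02 from 3 other probe sets. Wnt6, a ligand of surface ectoderm, had 452 and 855 (-0.92). Sfrp1, a secreted WNT inhibitor, had 2016 and 392 (2.36), and its 4 other probe sets above the floor were all higher proximally, by up to 2.58. Among other inhibitors Dkk2 differed by at least 0.94, Sfrp2 by 0.03 and Dkk1 by 0.05. Wif1 (-0.19), Frzb (-0.25) and Dkk3 (-0.63) were below 0, so Sfrp1 does not stand for the inhibitors as a group. Axin2 and Lef1, read as targets of the pathway, differed by -0.31 and 0.06. Nkd1 and Nkd2, also on the list, differed by 0.08 and -0.52. Of 25 measured genes 2 were 2-fold higher distally and 1 proximally, against 1.40% and 1.36% of all measured genes, with a median of -0.31.

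Factors of the distal mesenchyme were higher distally in part. Of 18 measured genes 5 were 2-fold higher distally and 0 proximally, with a median of -0.55. Besides Hoxd13, Cyp26b1 and Wnt5a these were the zinc finger factors Sall3, at 272 and 724 (-1.41), and Sall1, at 1616 and 3244 (-1.01), while Sall4, active in the whole early bud, had 5019 and 5277 (-0.07). The LIM homeobox genes Lhx9 and Lhx2, which relay ridge signals, were not higher distally, at 4192 and 3234 (0.37) and 552 and 421 (0.39). Msx1, a homeobox gene of proliferating distal mesenchyme, had 3115 and 3408 (-0.13) and Lmx1b, which gives dorsal identity, 1362 and 1764 (-0.37). Nrp2, a receptor for semaphorins and VEGF, was bright and higher distally at 1756 and 4218 (-1.26), with -2.18, -2.70 and -2.35 from 3 other probe sets.

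Most genes expressed throughout limb mesenchyme differed little between the parts. On their chosen probe sets Prrx1, Prrx2, Twist1, Twist2, Shox2, Tbx15 and Tbx5 ranged from -0.13 to 0.20. Shox2, a gene for the upper arm, had 4135 and 4111 (0.01). Other Prrx1 probe sets differed by -0.03, 0.23, 0.29 and 0.47, and a dim Tbx5 one by -0.55. Pdgfra and Emx2, also on this list, had 4433 and 3395 (0.38) and 1120 and 781 (0.52). Tbx18, a gene of anterior and proximal mesenchyme, stood out at 1678 and 659.7 (1.35), with 1.21 from a second probe set. Most measured anterior genes were higher proximally: Pax1, active in the shoulder region, had 591 and 5.76 (at least 3.31) and Alx1 898 and 306 (1.55). With Irx3 and Irx5, already counted as Iroquois genes, they made 4 of 5 measured at 2-fold, where 1.36% of all measured genes were. Gli3, the remaining measured gene, differed by 0.10, and Alx4 and Pax9 were below the floor on both arrays.

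Several genes of skeletal and connective tissue precursors were higher proximally. Sox9, the master factor of cartilage, had 729 and 357 (1.03), Col1a1, the fibrillar collagen of dermis, tendon and bone, 1812 and 829 (1.13), and Scx, a tendon factor, 240.4 and 79.4 (1.60). Col2a1, the cartilage collagen, had 947 and 1296 (-0.45) and Acan, the cartilage proteoglycan, was below the floor on both arrays. Fap, a serine protease of mesenchymal cells, had 634 and 65.4 (3.28). The odd-skipped factors differed in direction and were both dim, with Osr1 at 164 and 73.5 (1.16) and Osr2 at 73.6 and 150.3 (-1.03). Of 9 measured cartilage and skeletal genes 2 were 2-fold higher proximally and 0 distally, and of 7 connective tissue genes 3 and 1. Over all measured genes the shares were 1.36% and 1.40%. The remaining measured genes of the cartilage list, Sox5, Sox6, Col9a1, Col11a1, Col3a1 and Hapln1, lay between -0.08 and 0.35.

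Most measured markers of cells that enter from the body were higher proximally. Lbx1, which muscle precursors need to migrate into the limb, had a signal of 1355 in the proximal and 227 in the distal array (2.58), Pax3 1096 and 218 (2.33) and Eya1 321 and 102 (1.65). Met, the receptor that lets these cells leave the somite, had 1380.2 and 732 (0.92). Of 6 measured muscle precursor markers 3 were 2-fold higher proximally, where 1.36% of all measured genes were, and 0 distally. Meox2, also on this list, went the other way at 1069 and 1271 (-0.25). The summed signal of all 9 markers on the array was 5398 in the proximal and 2625 in the distal array. Pax7, Myod1 and Myog, markers of later muscle cells, were below the floor on both arrays. Somite and body wall markers had 5 of 6 higher proximally and 0 distally, with Tcf15 at 773 and 327 (1.24) and Foxc2 at 207 and 93.7 (1.14), and a summed signal of 3734 in the proximal and 1429.6 in the distal array. Pax1 and Tbx18 are also on this list, and Pax9, Uncx, Foxd1 and Foxf1 were below the floor. The part of these cells in the other proximal differences was not tested.

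Guidance and growth factor genes for migrating cells, picked after their values were seen, were also higher proximally. Hgf, the ligand of Met, had 379 and 173 (1.13), with 1.32 from a second probe set. Cxcl12, a chemokine that attracts muscle precursors, had 315 and 52.6 (at least 2.41), its receptor Cxcr4 593 and 155 (1.93) and its scavenger receptor Ackr3 672 and 312 (1.11). Gdnf, which guides motor axons, was dim at 127 and 30.9 (at least 1.10), and its receptor Gfra1 had 187 and 27.1 (at least 1.65). Igf1, a growth factor, had 439 and 102 (2.10), with at least 0.52, at least 2.73 and 3.27 from 3 other probe sets.

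Surface ectoderm was more strongly represented on the distal array. Of 15 measured markers 14 were lower proximally and 2 by 2-fold, with a median of -0.77, and the summed signal of all 16 on the array was 15438 in the proximal and 25141 in the distal array. Krt5, a basal keratin, had 251 and 948 (-1.91), Epcam, an epithelial adhesion protein, 834 and 1903 (-1.19), and Cdh1, the epithelial cadherin, 1186 and 2262 (-0.93). Krt19 was the exception at 603 and 466 (0.37). A second Epcam probe set, at 159 and 240, differed by -0.59, under 2-fold. Other epithelial genes among the 159 distal ones, picked after their values were seen, were the membrane protease St14 at 190.3 and 653 (-1.78), its inhibitor Spint1 at 334 and 812 (-1.28), the stratifin gene Sfn at 404 and 844 (-1.06), the anchoring protein Lad1 at 142 and 439 (-1.63), the ectodysplasin receptor Edar at 242 and 579.7 (-1.26), and the laminin chain Lama5 at 469.6 and 957 (-1.03). Ridge genes are ectodermal themselves. The measured ridge genes had a median of -1.09 against -0.77 for the surface ectoderm markers, and the values of these lists overlapped. The part of the ectoderm share in the distal differences was not tested.

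Markers of other cell types differed less. Of 12 endothelial markers 11 were higher proximally, 1 of them by 2-fold, Sox17 at 196 and 87.4 (1.17), and the median was 0.35. The summed signal of all 12 on the array was 4354 in the proximal and 3314 in the distal array. Erythroid genes were even, with 0 of 8 at 2-fold proximally and 0 distally, a median of 0.00 and embryonic globin Hbb-y at 14008 and 12982. Macrophage markers were dim, 1 of 6 2-fold higher distally, Lyz2 at 65.4 and 163 (-1.31), with Cx3cr1, Aif1, Ptprc and Spi1 below the floor. Of 5 measured neural and Schwann cell markers, Stmn2 was higher proximally at 209 and 69.4 (1.59) and Tubb3 distally at 95.8 and 266 (-1.47), and Sox10 and Foxd3 were below the floor. Of the 8 mesothelium markers 3 were measured and 0 were 2-fold higher proximally or distally.

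**Figure D3:**
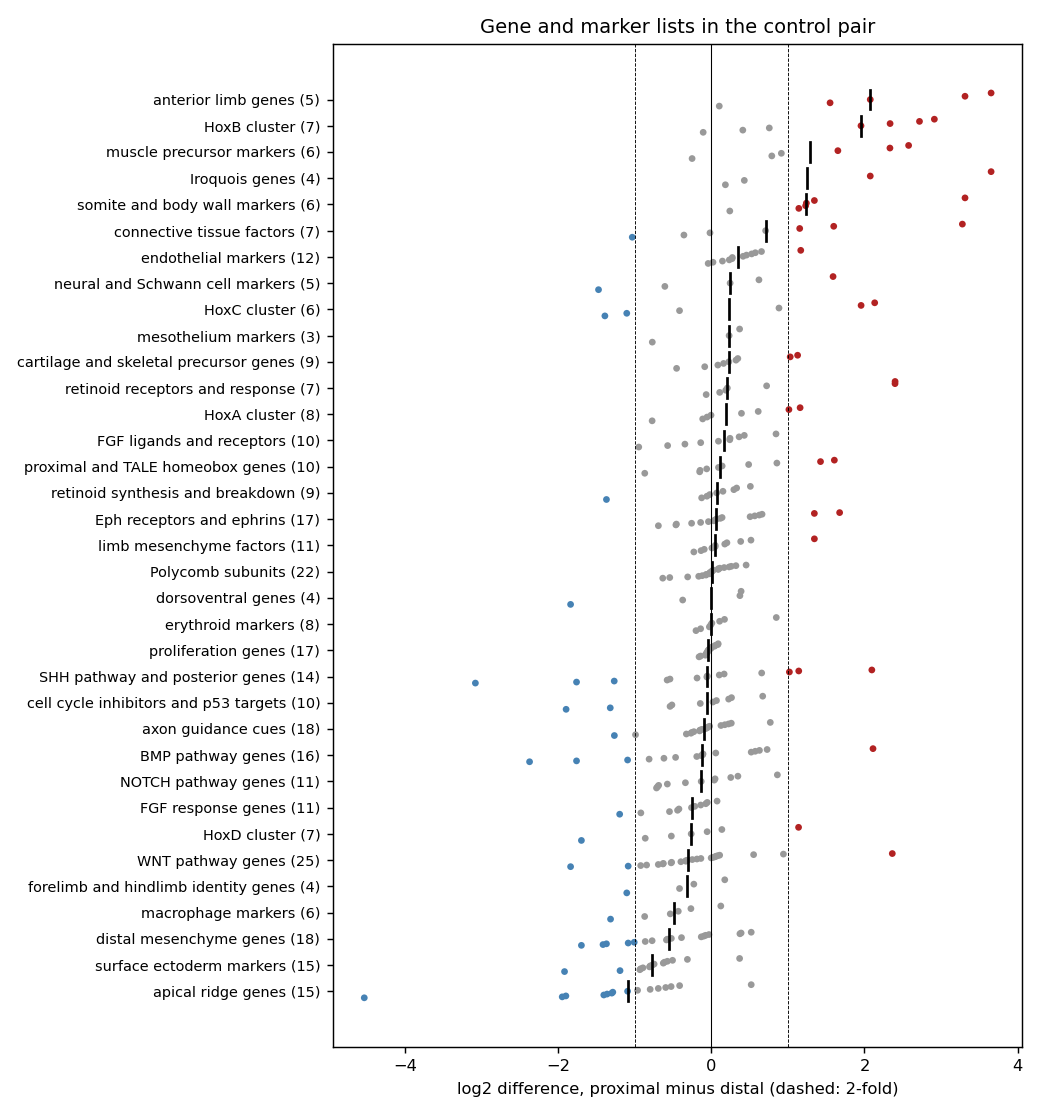
Difference between the control arrays (x, log2 proximal minus distal) for each measured member of the gene and marker lists (y, number measured in brackets), with a black bar at the list's median, dashed lines at 2-fold and members past them in red (proximal) or blue (distal). Anterior limb genes and the HoxB cluster have the highest medians, 2.08 and 1.96, and the apical ridge genes the lowest, -1.09; some genes are on more than 1 list.

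Cell contact and guidance families held isolated differences, where 1.36% of all measured genes were 2-fold higher proximally and 1.40% distally. Among 17 measured Eph receptors and ephrins, which sort cells at boundaries, 2 were 2-fold higher proximally and 0 distally: Epha7 had 644 and 202 (1.68) and Epha3 737 and 289.9 (1.35), with at least 1.88 and 1.28 from second probe sets. Epha4, which is active in distal and dorsal mesenchyme, had 2406 and 3312 (-0.46). Among 18 guidance genes Nrp2 was the 1 at 2-fold, and the repellents Slit2 and Slit3 differed in opposite directions by 0.77 and -0.99. NOTCH pathway genes had 0 of 11 at 2-fold either way, which at a share of 2.76% over all measured genes does not set them apart. Of 14 measured integrins 2 were 2-fold higher distally, Itga3 at 409 and 835 (-1.03) and Itgb8 at 66.6 and 143 (-1.11), and 10 were below 0. Potassium channels had 3 of 19 higher proximally, Kcnq5 by at least 2.34, Kcnd3 by at least 1.51 and Kcnh2 by 1.32, all of them dim on the distal array.

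Gene families that serve every cell, and the large Zfp zinc finger family, were even. Among 73 mitochondrial ribosomal protein genes, 42 ribosomal protein genes, 35 proteasome subunits and 298 Zfp zinc finger genes, 0 were 2-fold in either direction. Their medians were -0.05, 0.01, -0.04 and 0.02. The share at 2-fold was 2.76% over all measured genes, but 0.211% in the brightest of the 4 groups by mean signal. These families were not compared with genes of similar signal, so the counts of 0 do not set them apart from such genes. Of 89 respiratory chain subunits 1 was 2-fold higher distally, Cox4i2, an isoform linked to low oxygen, at 121 and 332 (-1.46). All 17 measured proliferation genes lay between -0.16 and 0.09, with Mki67 at 5026 and 5053 and the DNA replication clamp Pcna at 7243 and 7254. Among cell cycle inhibitors and p53 targets Cdkn1a, which halts the cycle and is active in the ridge, had 382 and 1419 (-1.89), with -1.23 from a second probe set, and Pmaip1, which promotes cell death, 314 and 782 (-1.32). They were the 2 of 10 measured at 2-fold distally, where 1.40% of all measured genes were, and 0 were proximally. The list as a whole was split, with 5 genes above and 5 below 0, a highest value of 0.67 for Cdkn1c and a median of -0.06. The 22 measured Polycomb subunit genes included 0 at 2-fold, which at a share of 2.76% over all measured genes does not set them apart. Ring1 had the lowest value among them (-0.63).

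The genes with the largest differences included several outside these lists. On the proximal side Gsc, a homeobox gene, had 377 and 20.1 (at least 2.66), and Sim2, a bHLH-PAS transcription factor, 447 and 73 (2.61). Sned1, an extracellular matrix protein, had 771 and 131 (2.55), and the secreted protein gene Fibin 353 and 44.4 (at least 2.57). Tac1, which encodes substance P, had 362 and 34.4 (at least 2.61), and the long noncoding RNA Crnde, which lies between Irx3 and Irx5, 351 and 64.9 (2.44). Mup10, named for the urinary proteins of adult liver, had 1569 and 177 (3.15). The proximal side thus mixed regulators, matrix proteins and neural or secreted peptides.

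On the distal side Tent5a, a poly(A) polymerase, had 191 and 1481 (-2.95), Rcsd1, an actin-capping regulator, 218 and 1344 (-2.63) and the phosphatase subunit Ppp2r2c 84.5 and 484 (-2.52). Cntn2, a neural adhesion protein, had 59.9 and 356 (-2.48, a bound), the kinase Srms 42.2 and 320.3 (-2.32, a bound) and the gap junction protein Gja3 336 and 1300.1 (-1.95). Sct, the hormone secretin, had 389 and 1490.4 (-1.94) and Vax2, a homeobox gene of ventral eye, 66.1 and 242 (-1.87). Acta2, smooth muscle actin, had 57.8 and 238 (-1.89, a bound), and its companions Tagln and Actg2, named after their values were seen, 74.6 and 256 (-1.78) and 26.2 and 199 (-1.64, a bound). All 3 contractile genes were at or near the floor proximally. Socs2, a feedback inhibitor of cytokine signalling, was also named after its values were seen, at 963 and 3253 (-1.76), with -1.95 from 1 other probe set and bounds of -1.16, -1.16 and -0.82 from 3 more.

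**Figure D4:**
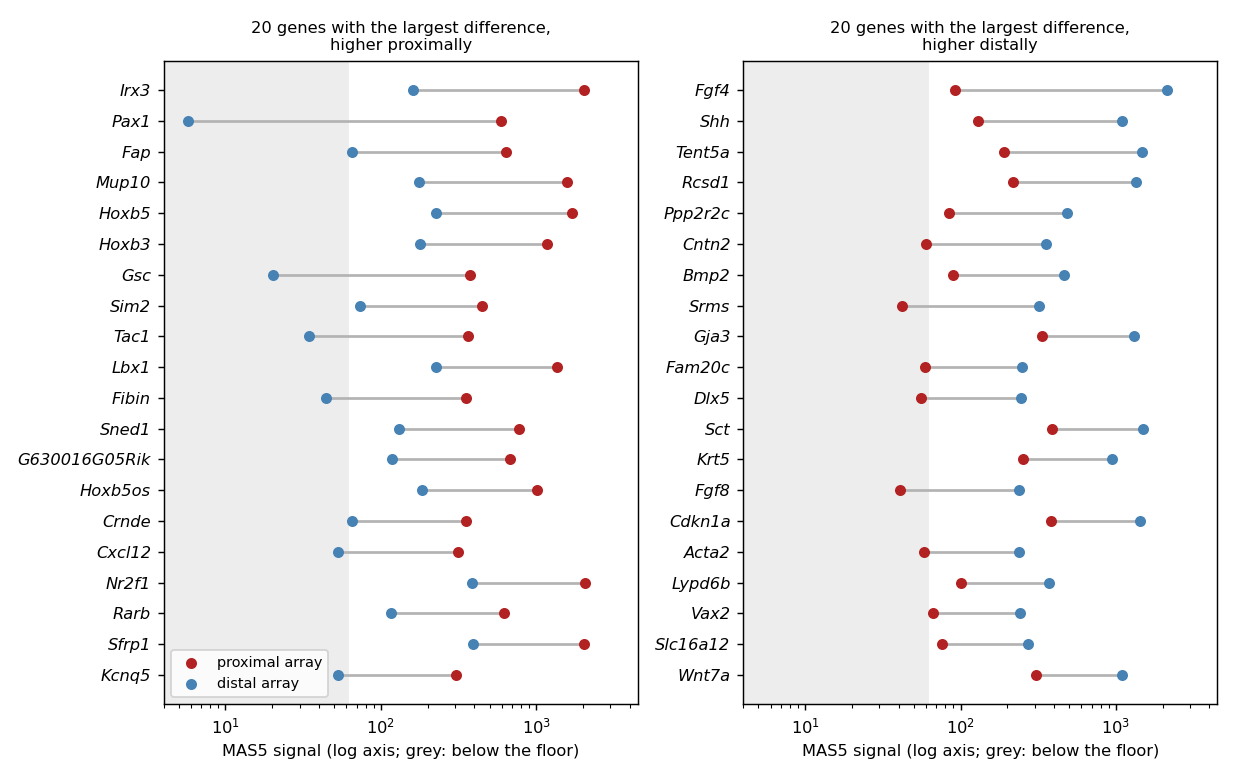
MAS5 signals (x, log axis) on the proximal (red) and distal (blue) control array for the 20 genes with the largest difference in each direction among genes with a signal of at least 200 on 1 of the arrays; the grey area lies below the floor. Proximal examples run from Irx3 at 2018 against 160.4 to Kcnq5 at 302 against 52.9, and distal ones from Fgf4 at 2141 against 92.7 to Wnt7a at 1093 against 306.

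Some of these genes lie next to each other. Of the measured genes in chromosome order, 19 proximal and 15 distal genes stood in runs of 2 or more neighbours of the same direction, in 7 runs each, and 2 neighbouring pairs had opposite directions. The proximal runs were Hoxb3 to Hoxb6 with Hoxb5os, Irx3 with Crnde and Irx5, Hoxc4 with Hoxc5, and Meis2 with the noncoding transcript G630016G05Rik at 680.4 and 118 (2.53), among others. A further run held Meg3, Rian and Mirg, noncoding RNAs of the imprinted Dlk1-Dio3 region made from the maternal chromosome. Meg3 had 2074 and 1019 (1.03), Rian 2120.0 and 927 (1.19) and Mirg 428 and 186 (1.21), and 9 other Meg3 probe sets were all higher proximally, by up to 1.30, with 4 of these values bounds. Distal runs included Dlx1 with Dlx2, Hoxc8 with Hoxc9, and Grem1 with Fmn1, at 199 and 550.1 (-1.47), whose gene holds limb enhancers of Grem1.

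The same genes were then read in the dKO and RA pairs, which share no array with the control pair but differ from it in genotype or treatment. The genes were chosen for their control difference, so a smaller value elsewhere can follow from that choice alone. Of the 155 proximal genes 152 were measured in the dKO pair, 130 (85.5%) with the same sign and 29 (19.1%) at 2-fold in the same direction, with a median of 0.63 against 1.35 in control. In the RA pair 152 were measured, 130 with the same sign and 90 (59.2%) at 2-fold, with a median of 1.22. Of the 159 distal genes 150 were measured in the dKO pair, 136 (90.7%) with the same sign and 37 (24.7%) at 2-fold (median -0.64), and 146 in the RA pair, 129 (88.4%) with the same sign and 83 (56.8%) at 2-fold (median -1.13). Over all measured genes 0.506% were 2-fold higher proximally and 0.721% distally in the dKO pair, and 4.43% and 6.17% in the RA pair. The RA arrays therefore held more 2-fold differences of any kind, and the differences between pairs have no test. These arrays also stood apart in a spiked-in control RNA, bioB, whose 3′ probe set read 84.4 and 103 against 1105 to 1223 on the other 4 arrays. The proximal RA array had the highest 3′ to 5′ ratios of the 6, 1.60 for Gapdh and 1.95 for actin, against 1.28 to 1.39 and 1.52 to 1.72 on the control and dKO arrays. The part of these differences in the RA values was not tested.

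Named genes differed in how they carried over. Fap was 2.61 in the dKO and 4.64 in the RA pair, Lbx1 2.24 in the dKO and 4.53 in the RA pair and Wnt7a -1.59 in the dKO and -1.74 in the RA pair, all 2-fold in the control direction. Irx3 was 0.79 in the dKO and 1.98 in the RA pair and Hoxb5 0.56 in the dKO and 1.91 in the RA pair, so these were 2-fold in the RA but not in the dKO pair. Fgf4 was at its floor on the proximal array of both other pairs, so its values there, -0.52 (a bound) in the dKO and -4.51 (a bound) in the RA pair, may understate the difference. Its distal signal was 104 in the dKO pair, near that array's floor of 76.1, against 2141 in the control and 1431 in the RA pair. Shh was below the floor on both dKO arrays and differed by -2.76 in the RA pair. Meis2 was 0.63 in the dKO and 0.52 in the RA pair, Meis1 0.28 in the dKO and -0.08 in the RA pair, Hoxc5 -0.02 in the dKO and 0.98 in the RA pair and Rarb 0.77 in the dKO and 0.49 in the RA pair, under 2-fold in both. Tbx18 was -0.34 in the dKO and -0.09 in the RA pair and Epha3 -0.17 in the dKO and -0.91 in the RA pair, below 0 in both against 1.35 and 1.35 in control. Across the 11159 genes measured in both pairs the control and dKO differences correlated at r = 0.446, and across 11060 genes the control and RA differences at r = 0.326, where genes are not independent replicates.

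**Figure D5:**
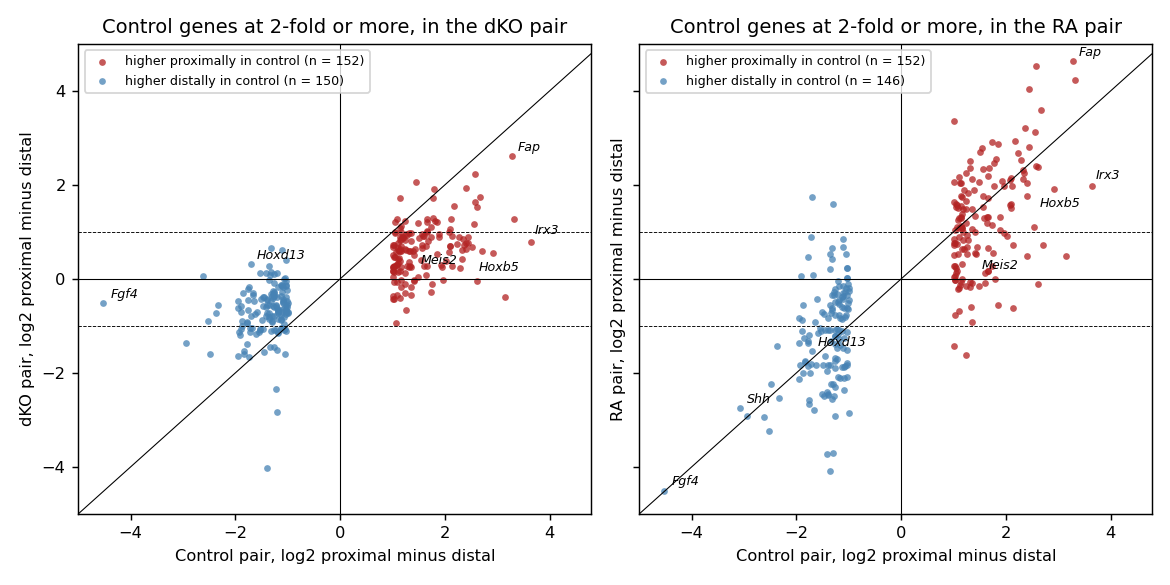
Proximal minus distal log2 difference in the control pair (x) and in the dKO (left) or RA (right) pair (y) for genes at 2-fold or more in control; the diagonal marks equal differences and the dashed lines 2-fold. In the dKO pair 130 of 152 red and 136 of 150 blue points keep the control sign, most of them within 2-fold of 0, and in the RA pair 90 red and 83 blue points are past 2-fold in the control direction.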

How the data were processed

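Total RNA from RNeasy Micro kits was made into biotin-labelled cRNA, per the labels' protocols. The deposited values are intensity from the authors' MAS5 processing, per the submitters' processing notes, and on each array the mean without the outer 2% of values at either end is 500. MAS5's version, probe-level files and detection calls were not used here. Of 45101 probe sets, 64 are controls, 34958 were annotated to 1 gene symbol and 932 to several, and 34754 gene IDs matched RefSeq (GRCm38.p6). After flooring at the array median, a gene with several probe sets was read from its brightest one, by mean log2 over 6 arrays. A gene was measured when at least 1 array of the pair was above its floor. Genes were counted at 2-fold, with pandas 2.3.3 and numpy 2.4.6. The computation was tested on simulated data. The number of arrays, 1 per group, limits the precision.

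Named genes were the 20 largest differences in each direction with a signal of at least 200 on 1 array, list members at 2-fold, Meis, Irx and Hox genes and 10 fixed genes; list members under 2-fold given as examples, and genes said to be so, were picked after their values were seen. The members and lists were chosen with earlier results of these data known. Alternatives were other floors, scalings, probe set choices and a 3-fold threshold.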

Additional observations from a re-analysis of the deposited data

Results flagged for a closer look

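Of the 314 genes at 2-fold in the control pair, 4 were 2-fold in the opposite direction in the RA pair and 0 in the dKO pair. Ngfr, a neurotrophin receptor, was 1.02 in control and -1.43 in RA. Zbtb16, a zinc finger factor of limb patterning, was 1.23 and -1.62. Diras2, a small GTPase, was -1.70 (a bound) and at least 1.75, and Pou4f1, a factor of sensory neurons, -1.31 and 1.59. These differences between pairs rest on 1 array per group and were not tested. The RA arrays also differ from the control arrays in a spiked-in control RNA, as given above. A second Pou4f1 probe set differed by at least 0.19 in control and a second Zbtb16 probe set by 0.42.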

How the results depend on the processing

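The counts at 2-fold, 155 proximal and 159 distal, stayed within 1.5 times under a pseudocount of 32 without a floor, division by the array median, quantile normalization, a probe set chosen on the control arrays, removal of _s_at and _x_at probe sets and, chosen after seeing the data, only genes above the floor on both arrays. They were 31 and 23 with a floor at the 75th percentile, which measures fewer genes, 100 and 104 with the mean over a gene's probe sets, and 62 and 42 at 3-fold. The all-gene median became -0.10 when each array was divided by its median. With the floor at the 75th percentile the median of all Hox genes turned from 0.27 to -0.0281, that of neural and Schwann cell markers from 0.25 to -0.03485, and that of the forelimb and hindlimb identity genes from -0.32 to 0.18. Of the 90 named genes at 2-fold, 44 stayed at 2-fold in the same direction under every setting that measured them, and of all 123 named genes 0 reversed direction while at 2-fold. No paired analysis was possible because each group has 1 array and the labels carry no replicate number. The precision of dim genes is limited by their signal over background.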

Other observations

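Of 3090 measured probe sets that the annotation pairs with several genes or with none, 55 were 2-fold or more higher proximally and 22 distally. Of the 11397 measured genes 155 (1.36%) and 159 (1.40%) were. The balance of the genes shifted when each array was divided by its median, as given above, and that setting was not applied to these probe sets.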
